A study of Homo sapiens with 12 samples.

Results

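Wild-type full-length Notch1 was set against empty vector in MCF-10A cells, an immortalised, non-tumorigenic human mammary epithelial line with a basal-like character. The comparison takes the 3 arrays titled wild-type full-length Notch1 and the 3 titled vector control, 6 of the 12 arrays of the series. The other arrays are 3 of Notch1 L1601P+∆P, a receptor that carries the L1601P substitution and the ∆P change, and 3 of NICD, the intracellular domain of Notch, and they enter here as the other forms of the same protein. All 4 groups were harvested 48 h after retroviral infection and profiled as total RNA on Affymetrix arrays. The labels call the replicates biological but do not say whether they came from separate cultures or infections, so each p-value measures only the spread between these samples. No promoter, dose of virus or share of infected cells is given, and all groups, the vector included, were infected.

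Notch1 is a single-pass receptor that is cut by furin on its way to the surface and held silent there by a regulatory region outside the membrane. A ligand of the Delta or Jagged family on a neighbouring cell exposes a site for ADAM10, after which gamma-secretase releases the intracellular domain. That domain enters the nucleus, binds RBPJ and a Mastermind-like coactivator, and switches on genes such as those of the HES and HEY repressors and NRARP. Intact Notch1 therefore depends on ligand and cleavage, whereas the intracellular domain depends on neither. In mammary epithelium the pathway is known for its part in the choice between basal and luminal fates. The comparison asks which genes the intact receptor moved when it was overexpressed.

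Values are log2 signals normalised by the depositors. A probe set is the group of probes designed for a transcript, and where a gene had several, the brightest on average across the 12 arrays stood for it. This left 19775 genes. A gene is called here where limma's Benjamini-Hochberg adjusted p over these genes is under 0.05, and an unadjusted p is used only for counts. For full-length Notch1 against vector, where few genes had small p-values, a gene of typical error needed an estimated difference of 0.53 on the log2 scale to be called, and the other comparisons called smaller ones. Keratins KRT5 and KRT14, the adhesion protein CDH1, the growth factor receptor EGFR and integrin ITGB4 had mean signals of 13.34, 13.31, 11.95, 10.75 and 10.97 in the vector arrays, while the oestrogen receptor ESR1 was at 6.32 and the progesterone receptor PGR at 3.78. Pearson's r over all 54675 probe sets was 0.9969 to 0.9975 among the full-length arrays, 0.9969 to 0.9976 among the vector arrays and 0.9964 to 0.998 between the groups. Over 18 markers of fibroblasts, endothelium and blood cells, of which 16 were tested, the mean level per array was 5.62 to 5.74 in full-length arrays and 5.62 to 5.70 in vector arrays. None of the 16 was called by limma, where 0.0354% of all genes were called. At an unadjusted p under 0.05, 1 was lower, where 3.08% of all genes were lower.

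NOTCH1 itself, measured first as a check of the labels, was read by a pair of probe sets. The dimmer stood at 6.42, 6.43 and 6.77 in the vector arrays and at 9.11, 9.19 and 9.17 in the full-length arrays. The difference was 2.62 ± 0.08 (SE, n = 3 and 3), a 6.13-fold rise with a 95% interval of 2.43 to 2.80 on the log2 scale and an adjusted p of 1.23e-08 over all probe sets, of which 0.0110% were called. All full-length arrays thus lay far above all vector arrays, and the introduced gene matched its label. The same probe set read 8.72 to 8.76 with Notch1 L1601P+∆P and 8.75 to 8.83 with NICD, so its full-length level was above both, by 0.42 (adjusted p = 0.0268) and 0.37 (adjusted p = 0.008). The brighter probe set gave 9.50, 9.38 and 9.45 in vector and 9.49, 9.52 and 9.56 with full-length Notch1, a difference of 0.08 ± 0.06 that was not called (adjusted p = 0.999 over all probe sets). The positions of these probe sets along the transcript were not analysed here.

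Against that rise of the receptor, limma called 7 of 19775 genes, 0.0354% of them. PLA2G2A, OLFM4, HSD17B2, SERPINA3, CCN1 and PDIA4 rose (6 genes, 0.0303%) and RAP1A fell (1 gene, 0.00506%). The eighth gene in order of p stood at an adjusted p of 0.183. The count was 4 to 5 when 1 array of either group was left out, 3 with the 6 arrays alone and 19 with an intensity trend and robust moderation. It was 4 without full-length replicate 2, full-length replicate 3 or vector replicate 1. Before adjustment, 1053 genes (5.32%) had a p under 0.05, 444 of them higher (2.25%) and 609 lower (3.08%), and the median difference over all genes was -0.01. Notch1 L1601P+∆P against the same vector arrays gave 1012 called genes (5.12%) and NICD gave 5460 (27.6%). In the direct tests, full-length Notch1 differed from Notch1 L1601P+∆P at 735 genes (3.72%) and from NICD at 5346 (27.0%). The first principal component, which held 69.7% of the variance over the 12 arrays, placed the full-length arrays at -18.9 to -17.1, next to the vector arrays at -21.1 to -19.1. In bulk RNA, a change in a few cells and a smaller change in all of them cannot be told apart. Probe sets with several gene symbols or none gave no call among 13522, with 647 (4.78%) at an unadjusted p under 0.05.

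**Figure D1:**
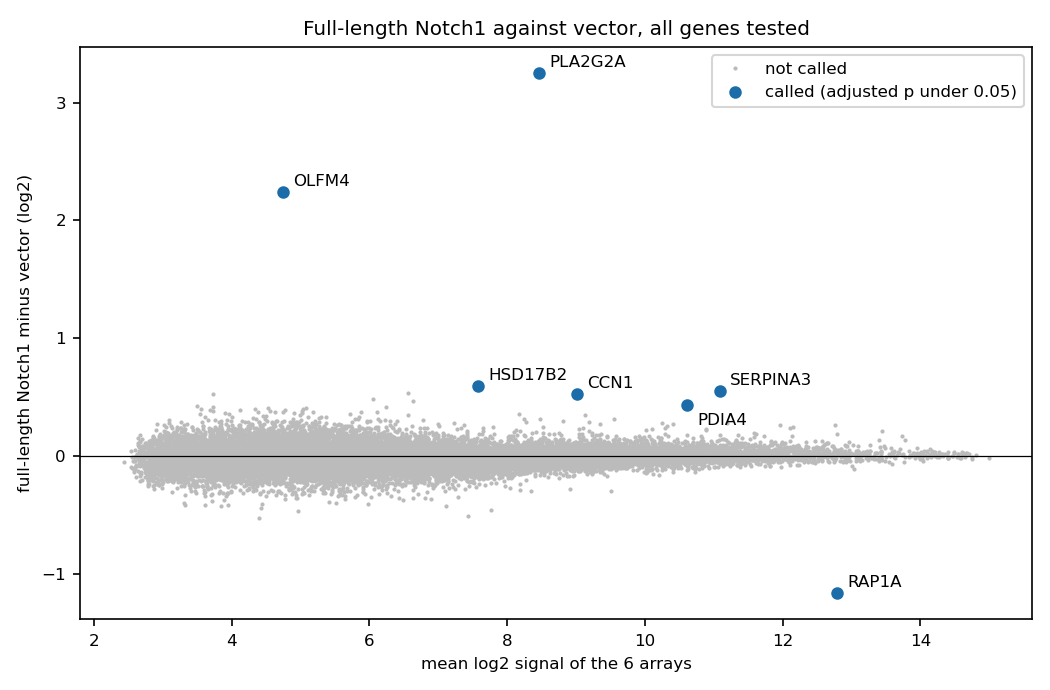
Mean log2 signal of each of the 19775 genes over the 6 arrays (x axis) against the log2 difference, full-length Notch1 minus vector (y axis), with the 7 called genes named and all others in grey. The grey band lies along 0, PLA2G2A and OLFM4 stand highest at 3.25 and 2.24, and RAP1A stands lowest among the called genes at -1.17.

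The largest rise belonged to PLA2G2A, a secreted phospholipase A2 that hydrolyses bacterial membrane phospholipids. Its log2 signal was 6.72, 6.94 and 6.84 in the vector arrays and 10.09, 10.08 and 10.07 in the full-length arrays. The groups did not overlap, and the 3 full-length arrays differed among themselves by less than the vector arrays did. The difference was 3.25 ± 0.07 (SE), a 9.52-fold rise (adjusted p = 2.18e-10). With Notch1 L1601P+∆P the same gene read 13.30, 13.56 and 13.55 and with NICD 14.49, 14.46 and 14.48, which is 99.5-fold and 201-fold above vector. Full-length Notch1 stood below both, by 3.38 on the log2 scale against Notch1 L1601P+∆P (adjusted p = 1.34e-10) and by 4.40 against NICD (adjusted p = 8.01e-13). These direct tests share the full-length arrays on which the gene was chosen.

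OLFM4, a secreted glycoprotein of the olfactomedin family known as a marker of intestinal stem cells, came next. It was dim in the vector arrays, at 3.51, 3.42 and 3.93, and read 5.68, 5.98 and 5.92 with full-length Notch1. Every full-length array was thus more than 1 log2 unit above every vector array. The difference was 2.24 ± 0.13, a 4.73-fold rise (adjusted p = 3.48e-06), set beside 94.3-fold with Notch1 L1601P+∆P and 900-fold with NICD. The vector signal lay below the median of all probe sets (5.67) and was not tested against background, so these folds are ratios of signals. The direct differences were -4.32 against Notch1 L1601P+∆P (adjusted p = 2.19e-09) and -7.57 against NICD (adjusted p = 8.01e-13). PLA2G2A and OLFM4 were called in all 13 alternative fits of full-length Notch1 against vector. The fit without dim genes kept a gene where the mean of either group was above 5.67. OLFM4 passed that filter only through its full-length arrays, so that fit adds no support for OLFM4.

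The RefSeq promoter window of OLFM4 (GRCh38.p14, 250 bases before to 50 after the start) held the letters GTGGGAA, the high-affinity form of the RBPJ core TGGGAA. It is shown because, of the 5 called genes with a window in the RefSeq table (PLA2G2A, OLFM4, SERPINA3, PDIA4 and RAP1A), OLFM4 was the only gene whose window held it. The printed stretch, with the match in capitals, spans chr13:53028563-53028589 on the plus strand. The match opens the window, 250 bases before the start.
OLFM4: GTGGGAAaccaaatattgggctttaca
Both strands of all windows were searched, and GTGGGAA was in 2194 of 35116 (6.25%), with every GTGGGAA also a TGGGAA. By gene, GTGGGAA was in 1 of the 5 called genes, beside 7.62% of all genes. The shorter core TGGGAA was in 3 of the 5 (OLFM4, PLA2G2A and SERPINA3), beside 28.1% of all genes. The site was singled out after the values were seen, and the match describes letters, not binding. HSD17B2 and CCN1 were not among the promoter entries.

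HSD17B2, SERPINA3 and CCN1 rose by less. HSD17B2, which oxidises oestradiol and testosterone to less active steroids, read 7.36, 7.35 and 7.12 in vector and 7.75, 7.88 and 7.97 with full-length Notch1. The groups did not overlap, and the difference was 0.59 ± 0.08 (1.51-fold, adjusted p = 0.0186). SERPINA3, an acute-phase inhibitor of serine proteases such as cathepsin G, read 10.93, 10.78 and 10.73 in vector and 11.41, 11.38 and 11.30 with full-length Notch1, a difference of 0.55 ± 0.06 (1.47-fold, adjusted p = 0.00465). CCN1, a matricellular protein that binds integrins and a known target of YAP, read 8.71, 8.85 and 8.70 in vector and 9.24, 9.27 and 9.32 with full-length Notch1. Its difference was 0.53 ± 0.07 (1.44-fold, adjusted p = 0.0206), and the groups were again apart. A second CCN1 probe set differed by 0.59, and neither passed in the fit of all probe sets (adjusted p = 0.0682 and 0.34). HSD17B2, with 1 probe set, was not called in that fit either.

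These 3 genes were also further up with the other Notch1 forms. Against vector, HSD17B2 was 5.16-fold higher with Notch1 L1601P+∆P and 31.6-fold higher with NICD, SERPINA3 5.53-fold and 12.5-fold, and CCN1 4.9-fold and 9.31-fold. The direct differences of full-length Notch1 from Notch1 L1601P+∆P were -1.78 for HSD17B2, -1.92 for SERPINA3 and -1.77 for CCN1, all called. Those from NICD were -4.39, -3.09 and -2.69, also called.

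The calls of HSD17B2 and CCN1 were lost when most single arrays were left out. HSD17B2 passed without full-length replicate 1, but its adjusted p was 0.112 without full-length replicate 2, 0.135 without full-length replicate 3, and 0.0527, 0.0521 and 0.0693 without vector replicates 1, 2 and 3. CCN1 passed without vector replicate 2, but its adjusted p was 0.0944, 0.112 and 0.146 without full-length replicates 1, 2 and 3 and 0.155 and 0.153 without vector replicates 1 and 3. With the 6 arrays alone the adjusted p was 0.507 for HSD17B2 and 0.115 for CCN1. SERPINA3 kept its call when any single array of either group was left out and lost it only when the fit held the 6 arrays alone (adjusted p = 0.178).

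**Figure D2:**
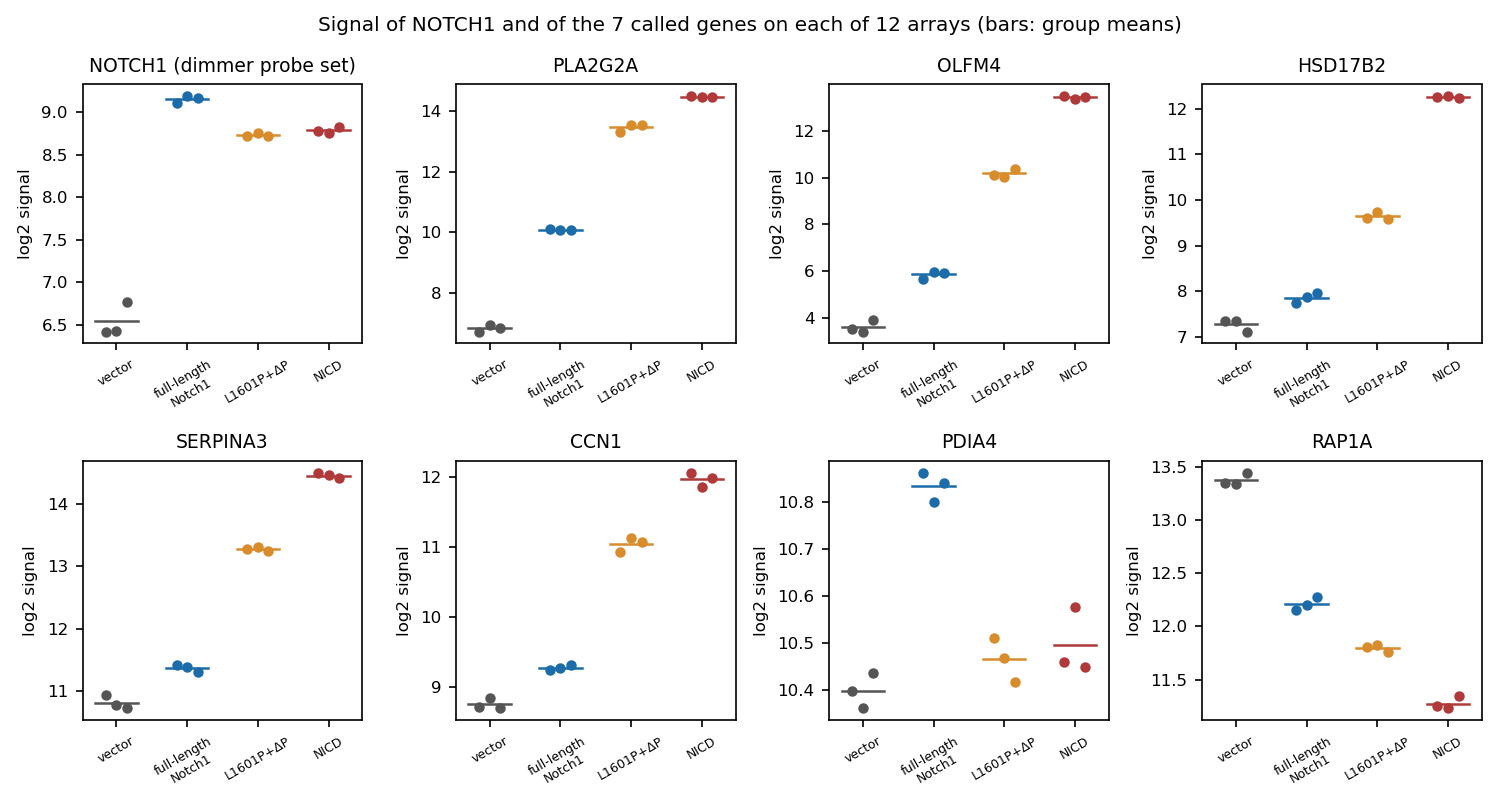
Log2 signal (y axis, a scale of its own in each panel) of the dimmer NOTCH1 probe set and the 7 called genes on each of the 12 arrays, by group (x axis: vector, full-length Notch1, Notch1 L1601P+∆P and NICD), with a bar at each group's mean. NOTCH1 and PDIA4 are highest with full-length Notch1, PLA2G2A, OLFM4, HSD17B2, SERPINA3 and CCN1 climb from vector through full-length Notch1 to NICD, and RAP1A runs the other way.

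RAP1A, a small GTPase of the Ras family that acts in integrin adhesion and cell junctions, was the only gene called lower. Its brightest probe set read 13.34, 13.34 and 13.44 in vector and 12.15, 12.20 and 12.28 with full-length Notch1, a difference of -1.17 ± 0.06 (0.446 of the vector level, adjusted p = 7.51e-07). It was called in all 13 alternative fits, although the mean of all its probe sets brought the difference to -0.61. The other Notch1 forms lay lower still, at 11.76 to 11.83 with Notch1 L1601P+∆P and 11.23 to 11.34 with NICD, and full-length Notch1 was above them by 0.41 (adjusted p = 0.00116) and 0.93 (adjusted p = 5.71e-08).

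The 4 probe sets of RAP1A disagreed. A second bright probe set read 13.18, 13.28 and 13.08 in vector and 11.67, 11.71 and 11.83 with full-length Notch1, a difference of -1.44 that was called in the fit of all probe sets (adjusted p = 8.92e-07). The next read 10.59, 10.71 and 10.51 in vector and 10.69, 10.69 and 10.62 with full-length Notch1, a difference of 0.06, and its arrays overlapped. The dimmest read 6.90, 6.92 and 6.88 in vector and 6.99, 7.02 and 6.96 with full-length Notch1, a difference of 0.09 that was not called although the arrays did not overlap. Of these 4, the brightest carries the array's designation for probes that may match other transcripts. Whether the RAP1A transcript fell as a whole was not tested.

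Other genes of the RAP family did not move past the threshold. Of 26 RAP GTPases and their regulators, 24 were tested and RAP1A was the only call, where 0.0354% of all genes were called. RAP1B, the closest relative of RAP1A, differed by -0.03 (adjusted p = 0.996), and the 23 genes other than RAP1A lay between -0.18 (RASIP1) and 0.17 (RASGRP2).

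**Figure D3:**
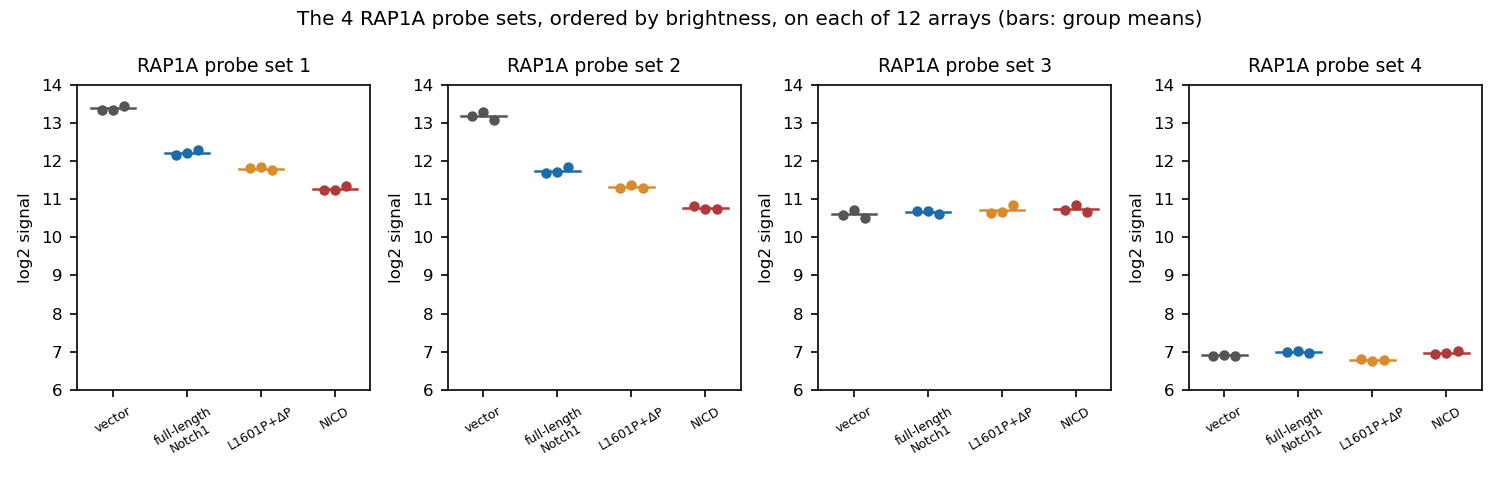
Log2 signal (y axis, the same in all panels) of the 4 RAP1A probe sets, ordered by brightness, on each array by group (x axis), with bars at the group means. The 2 bright probe sets drop from above 13 in vector to between 11.67 and 12.28 with full-length Notch1, while the other two stay near their vector levels.

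PDIA4 is a disulphide isomerase that folds proteins in the endoplasmic reticulum. With the brightest probe set standing for each gene, it was the only gene called higher with full-length Notch1 than in each of the other 3 groups (1 of 19775, 0.00506%). The dimmer NOTCH1 probe set, which does not stand for its gene here, was likewise called higher than in each group in the fit of all probe sets. PDIA4 read 10.40, 10.36 and 10.44 in vector and 10.86, 10.80 and 10.84 with full-length Notch1. With Notch1 L1601P+∆P it read 10.51, 10.47 and 10.42, and with NICD 10.46, 10.58 and 10.45. All 3 full-length arrays lay above the 9 others. The rise over vector was 0.44 ± 0.05 (1.35-fold, 95% interval 0.32 to 0.55, adjusted p = 0.0107), and full-length Notch1 was above Notch1 L1601P+∆P by 0.37 ± 0.05 (adjusted p = 0.00167) and above NICD by 0.34 ± 0.05 (adjusted p = 0.000356). The direct tests share the full-length arrays with the comparison against vector, so these calls are not independent of each other. Against vector, the other forms differed by 0.07 (adjusted p = 0.5) and 0.10 (adjusted p = 0.217).

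A second PDIA4 probe set read 8.91, 8.88 and 9.02 in vector and 9.21, 9.24 and 9.25 with full-length Notch1, a difference of 0.30 that was not called over all probe sets (adjusted p = 0.612). In that fit of all probe sets the brighter PDIA4 probe set was not called either. The PDIA4 call against vector was close to the threshold. Its adjusted p was 0.0859, 0.0545 and 0.0900 without full-length replicates 1, 2 and 3, and 0.0728 and 0.0669 without vector replicates 1 and 2, and it held without vector replicate 3. With the 6 arrays alone it was 0.115.

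PDIA4 belongs to a list of 27 endoplasmic reticulum chaperones and unfolded protein response genes, of which 26 were tested. These proteins fold secreted and membrane proteins, and their genes are switched on when unfolded protein builds up there. PDIA4 was the only member called, and the list was examined closely after its values were seen. At an unadjusted p under 0.05, 13 of 26 members were higher and 0 lower, where 2.25% of all genes were higher and 3.08% lower. The arrays of the groups did not overlap for 16 members, all higher, where 4.59% of all genes were higher without overlap. Differences ran from -0.06 to 0.44 with a median of 0.12, against -0.01 over all genes. Above 0 lay 23 members, where 47.1% of all genes did. Across the fits tried, 10 to 16 members were higher at an unadjusted p under 0.05.

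The members with the smallest p after PDIA4 were chaperones of the lumen, named here after their values were seen, and none was called against vector. HSP90B1, the lumenal HSP90, read 11.03, 11.09 and 11.04 in vector and 11.35, 11.32 and 11.31 with full-length Notch1, a difference of 0.28 ± 0.05 (adjusted p = 0.223). HSPA5, the lumenal HSP70 also known as BiP, read 12.58, 12.67 and 12.65 in vector and 12.86, 12.89 and 12.93 with full-length Notch1, a difference of 0.26 ± 0.05 (adjusted p = 0.238). CRELD2, a secretory protein induced by endoplasmic reticulum stress, read 10.07, 10.13 and 10.11 in vector and 10.31, 10.38 and 10.46 with full-length Notch1, a difference of 0.28 ± 0.05 (adjusted p = 0.281). In all 3 the groups were apart by more than the range within either group. MANF, another stress-induced secreted factor, differed by 0.27, the co-chaperone DNAJB11 by 0.25 and HYOU1, an HSP70-like chaperone, by 0.23. The calreticulin gene CALR differed by 0.18.

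Genes of the sensors and transcription factors of the response were not called. The sensor genes ATF6, ERN1 and EIF2AK3 differed by 0.02, -0.06 and 0.02, and the transcription factor XBP1 by 0.09. DDIT3, a transcription factor of prolonged stress, differed by 0.22 with full-length Notch1 and by -0.25 with NICD. Of the related list of amino acid stress and transport genes, 0 were called by limma, 0 had an unadjusted p under 0.05 in either direction, and the median was -0.04. Of the heat shock and cytosolic chaperone genes, likewise 0 were called and 0 passed unadjusted, with a median of 0.03. With 24 and 16 genes tested, these counts are near the 2.25% higher and 3.08% lower of all genes unadjusted. Without overlap of the arrays, 3 heat shock genes were higher and 1 lower, and 1 amino acid gene was higher. Of all genes, 4.59% were higher and 6.42% lower in that way.

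Part of the list also differed between full-length Notch1 and the other forms in direct tests. Against Notch1 L1601P+∆P, 5 of 26 members were called higher with full-length Notch1 and 0 lower, where 1.86% of all genes were called in each direction. They were PDIA4, CRELD2 (0.31, adjusted p = 0.00712), HSP90B1 (0.30, adjusted p = 0.0036), EIF2AK3 (0.28) and HSPA5 (0.27, adjusted p = 0.00777). Against NICD, 12 members were called higher and 3 lower (DNAJC3, SEL1L and SELENOS), beside 17.0% and 10.1% of all genes. These tests share the full-length arrays with the comparison against vector. With Notch1 L1601P+∆P against vector, 0 members were called in either direction and the median was 0.02, where 2.16% of all genes were called higher and 2.95% lower. With NICD 6 were called higher and 5 lower with a median of 0.09, where 9.54% and 18.1% of all genes were. Members higher than in each of the other 3 groups at an unadjusted p under 0.05 numbered 5 (PDIA4, HSPA5, HSP90B1, CRELD2 and MANF), where 0.217% of all genes were so.

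**Figure D4:**
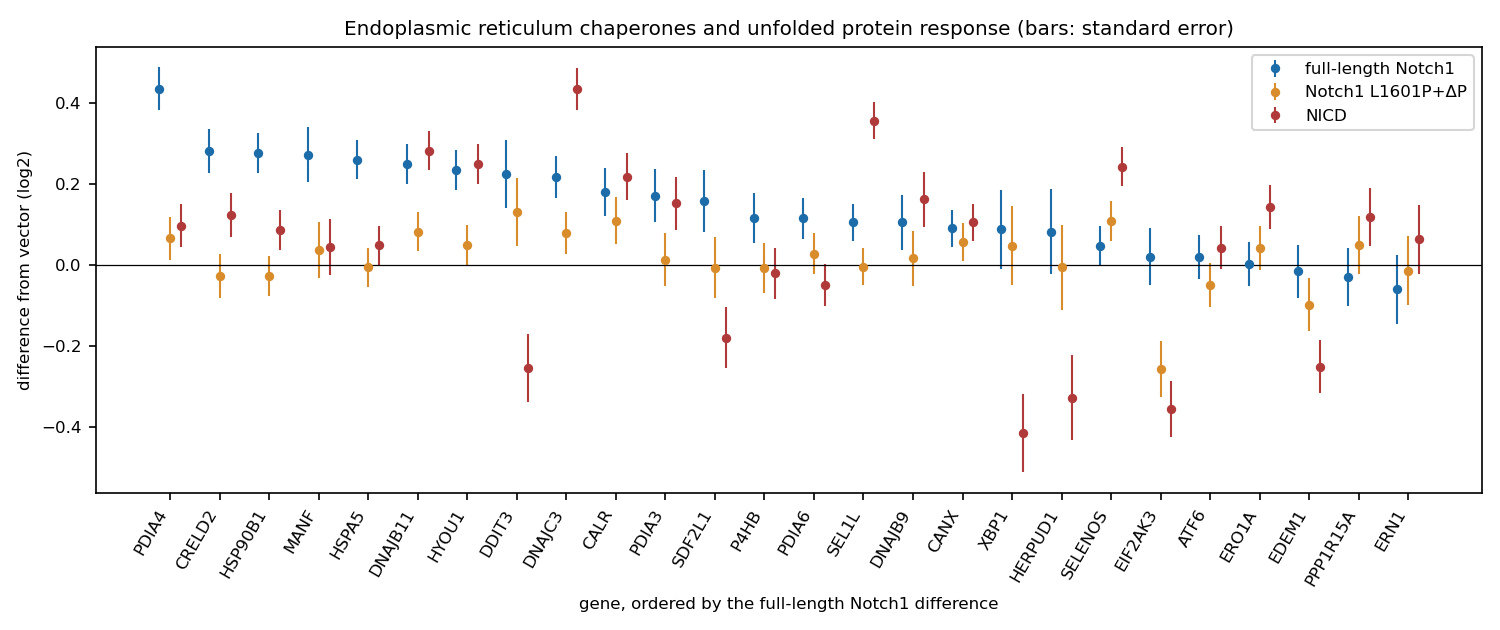
Log2 difference from vector (y axis) of the 26 tested endoplasmic reticulum chaperone and unfolded protein response genes (x axis, in order of the full-length difference) with full-length Notch1, Notch1 L1601P+∆P and NICD, with standard errors as bars. Members with full-length Notch1 run from -0.06 to 0.44, with 23 of 26 above 0 and PDIA4 at the left end.

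Some of these genes share a known promoter motif, the endoplasmic reticulum stress element, which is CCAAT, then 9 bases of any kind, then CCACG, and through which ATF6 and XBP1 act with NF-Y. The motif was searched on both strands of the RefSeq windows (GRCh38.p14) after the values were seen. It was in the windows of 7 of the 26 list genes that have one (26.9%), and in 25 of 27305 genes in all (0.0916%). The list was drawn up for genes of this response, with earlier results of these data known. Its share of matches is therefore no independent evidence. The printed stretches hold each match in capitals with 8 flanking bases on each side in lower case, so that the windows can be read side by side. They lie at chr9:125241383-125241417 on the minus strand (HSPA5), chr12:103930208-103930242 on the plus strand and chr12:103930313-103930347 on the minus strand (HSP90B1, site a and site b), chr22:49918546-49918580 on the minus strand (CRELD2), chr19:12938376-12938410 on the minus strand (CALR), chr2:10812845-10812879 on the minus strand (PDIA6), chr5:179698770-179698804 on the plus strand (CANX) and chr22:28800595-28800629 on the minus strand (XBP1).
HSPA5: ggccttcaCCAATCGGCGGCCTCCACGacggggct
HSP90B1 site a: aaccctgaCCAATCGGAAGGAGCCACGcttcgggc
HSP90B1 site b: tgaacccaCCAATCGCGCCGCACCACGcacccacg
CRELD2: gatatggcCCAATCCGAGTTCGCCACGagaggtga
CALR: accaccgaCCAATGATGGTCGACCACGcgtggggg
PDIA6: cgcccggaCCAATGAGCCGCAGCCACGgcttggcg
CANX: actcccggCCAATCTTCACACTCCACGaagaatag
XBP1: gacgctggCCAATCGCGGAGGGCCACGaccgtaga
Of these 7 genes, HSPA5, HSP90B1, CRELD2, CALR and PDIA6 were among the 13 members higher with full-length Notch1 at an unadjusted p under 0.05, and CANX and XBP1 were not. Those 13 are out of 26 members tested, and whether the motif acted in these cells was not tested. PDIA4, the member that was called, held no match in its window, which says only that these letters are not in that window.

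Of the classical Notch targets, 24 of 24 were tested and 0 were called by limma, where 0.0354% of all genes were called. At an unadjusted p under 0.05, NRARP and CCND1 were higher and PLAU lower, beside 2.25% and 3.08% of all genes. The median difference was 0.00 and the list ran from -0.19 (HES6) to 0.30 (NRARP), with 95% intervals of single genes reaching no further than -0.43 and 0.52. NRARP, which binds the nuclear Notch complex and dampens it, read 6.73, 6.79 and 6.38 in vector and 7.06, 6.76 and 6.98 with full-length Notch1. The groups overlapped, and its difference was 0.30 ± 0.10 (95% interval 0.09 to 0.52, adjusted p = 0.816), beside 2.18 with Notch1 L1601P+∆P and 4.43 with NICD.

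The repressors and ligands among the targets stayed near their vector levels. HES1 differed by 0.07 (95% interval -0.13 to 0.27), HES4 by 0.10 (-0.09 to 0.30) and HEY2 by 0.06 (-0.12 to 0.23). HEY1 read 7.02, 7.06 and 6.97 in vector and 7.09, 6.93 and 6.88 with full-length Notch1, a difference of -0.05 ± 0.06 (95% interval -0.18 to 0.08). JAG1, a Notch ligand gene that Notch itself can induce, differed by 0.08 (-0.05 to 0.22). The signs of HEY1, HEY2 and JAG1 turned when the mean of all their probe sets was used. CCND1, the cyclin of the early cell cycle, differed by 0.16 (0.00 to 0.31).

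The letters GTGGGAA were in the RefSeq windows of 6 of the 19 targets with an entry (31.6%), HES1, HES4, HES5, HEY2, HEYL and PLAU, against 7.62% of all genes. The list was drawn up of known Notch targets, so this share says nothing about full-length Notch1 against vector.

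In direct tests part of the targets differed from the other Notch1 forms. Full-length Notch1 was called lower than Notch1 L1601P+∆P at 8 of 24 targets and higher at 0, where 1.86% of all genes were called in each direction. NRARP was lower by 1.87 (adjusted p = 3.43e-07), HES4 by 1.18 (adjusted p = 7.86e-06), HEY1 by 0.77 (adjusted p = 1.29e-05) and JAG1 by 0.62 (adjusted p = 0.000109). Against NICD, 11 targets were called lower and 5 higher, where 10.1% and 17.0% of all genes were. The mean level of the list per array was 7.59 to 7.64 with full-length Notch1 and 7.59 to 7.63 in vector, which overlap, against 7.89 to 7.93 with Notch1 L1601P+∆P and 8.32 to 8.37 with NICD.

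**Figure D5:**
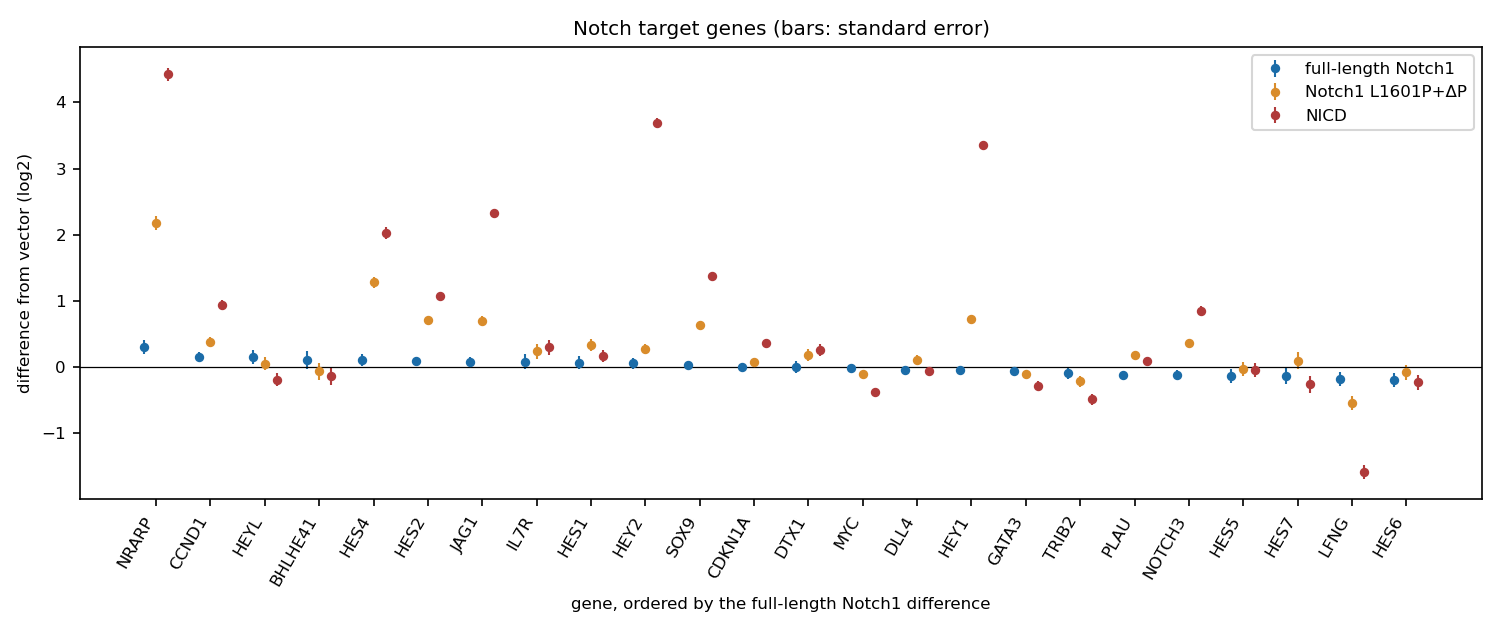
Log2 difference from vector (y axis) of the 24 Notch target genes (x axis, in order of the full-length difference) with full-length Notch1, Notch1 L1601P+∆P and NICD, with standard errors as bars. The full-length values lie between -0.19 and 0.30, while NRARP reaches 2.18 with Notch1 L1601P+∆P and 4.43 with NICD.

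Other parts of the Notch machinery also stayed close to vector. Of 42 receptors, ligands, enzymes and nuclear partners, 40 were tested and 0 were called by limma, where 0.0354% of all genes were called. At an unadjusted p under 0.05, 2 were higher and 0 lower, counts near the 2.25% and 3.08% of all genes. Those 2 were DLK1, a non-canonical ligand, at 0.33 ± 0.14 (adjusted p = 0.909) and SEL1L, an adaptor of endoplasmic reticulum degradation, at 0.11. The gene NOTCH1, taken here by its brighter probe set, is among the 40. The receptors NOTCH2, NOTCH3 and NOTCH4 differed by 0.01, -0.12 and 0.05, the protease ADAM10 by -0.04, and NCSTN, a subunit of gamma-secretase, by 0.12. The DNA-binding partner RBPJ differed by -0.04 and the coactivator MAML1 by 0.04. The lowest member was NUMB, an endocytic antagonist of Notch, at -0.39, which had no unadjusted p under 0.05.

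PLA2G2A, OLFM4 and SERPINA3 belong to a list of 30 antiproteases and secreted host defence proteins, of which 25 were tested. The list was drawn up with these results known, so its count is no independent evidence. These 3 members were called higher and 0 lower, where 0.0303% and 0.00506% of all genes were. Before adjustment (unadjusted p under 0.05), 9 were higher and 2 lower (PGLYRP4 at -0.31 and SERPINA1 at -0.16), beside 2.25% and 3.08% of all genes. The median was 0.10, beside 0.29 with Notch1 L1601P+∆P and 0.80 with NICD. CHI3L2, a chitinase-like secreted protein named after its values were seen, read 5.99, 6.21 and 5.89 in vector and 6.42, 6.60 and 6.32 with full-length Notch1. Its arrays did not overlap, but the difference of 0.42 ± 0.10 was not called (adjusted p = 0.633), beside 3.40 and 7.53 with the other forms. The elastase inhibitors PI3 and SLPI, chosen in the same way, differed by 0.24 (adjusted p = 0.633) and 0.17 (adjusted p = 0.755). Full-length Notch1 was called lower than Notch1 L1601P+∆P at 10 of the 25 and higher at 0, where 1.86% of all genes were called in each direction.

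Keratinocyte differentiation genes had 0 calls among 29 tested, where 0.0354% of all genes were called. Before adjustment (unadjusted p under 0.05) 7 were higher and 0 lower, beside 2.25% and 3.08% of all genes. Of these genes 27 lay above 0, where 47.1% of all genes did, and the median was 0.13. The suprabasal keratin KRT13, named after its values were seen, read 6.35, 6.45 and 6.42 in vector and 6.60, 6.90 and 7.12 with full-length Notch1, a difference of 0.46 ± 0.16 that was not called (adjusted p = 0.856) although the arrays were apart. KRT16 and KRT10, also chosen afterwards, differed by 0.31 and 0.24. The mean of the list per array was 7.96 to 8.03 with full-length Notch1 and 7.82 to 7.92 in vector.

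Type I interferon response genes lay on the other side of 0. Among 28 tested, 0 were called by limma, where 0.0354% of all genes were called. XAF1 alone was higher before adjustment (unadjusted p under 0.05), and 7 were lower, beside 2.25% and 3.08% of all genes. The median was -0.10, with 23 below 0, where 10467 of all 19775 genes were. Without overlap of the arrays 11 were lower, where 6.42% of all genes were lower in that way. IRF9, the DNA-binding part of the interferon-induced complex ISGF3, read 8.14, 8.19 and 7.97 in vector and 7.84, 7.85 and 7.83 with full-length Notch1 (-0.26, adjusted p = 0.814). IFITM1, a membrane protein that blocks virus entry, read 8.63, 8.47 and 8.38 in vector and 8.29, 8.01 and 8.29 with full-length Notch1 (-0.30, adjusted p = 0.856). Both were named after their values were seen, and in both the groups were apart. In the direct test against Notch1 L1601P+∆P, IFITM1 was called lower with full-length Notch1 by 0.56 (adjusted p = 0.01) and OASL by 0.35 (adjusted p = 0.0144), and 1 other member was called higher. Members lower than in each of the other 3 groups at an unadjusted p under 0.05 numbered 5, where 0.576% of all genes were so. The mean of the list per array was 7.21 to 7.26 with full-length Notch1, 7.28 to 7.37 in vector, 7.24 to 7.40 with Notch1 L1601P+∆P and 7.21 to 7.28 with NICD. Virus load in the groups was not analysed here.

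In all, 25 lists were examined, 21 of them without a called member by limma. Since 0.0354% of all genes were called, 0 calls in a list is near that share. The list medians ran from -0.10 to 0.13, and 20 of the 25 lay within 0.05 of 0. DNA replication and mitosis genes had 0 members at an unadjusted p under 0.05 in either direction, with medians of 0.00 and 0.01, and inflammatory cytokines and NF-kB targets likewise had 0 and a median of -0.06. Of all genes, 2.25% were higher and 3.08% lower unadjusted. Among TGF-beta and YAP targets CCN1 was the only call, and CCN2, its close relative, differed by -0.19. Of 17 basal and myoepithelial markers tested, 0 were called by limma, while before adjustment (unadjusted p under 0.05) 4 were higher and 0 lower, and 5 were higher without overlap of the arrays, where 2.25% and 4.59% of all genes were. KRT5 and KRT14, keratins of the basal layer, were among them at 0.13 and 0.21. Of 15 tested cyclin-dependent kinase inhibitor and growth arrest genes, 0 were called, 3 were higher and 0 lower before adjustment, and 4 were higher without overlap. Of 26 tested epithelial junction genes, 0 were called, 3 were higher and 0 lower before adjustment, and 6 were higher without overlap. AGR2, a luminal secretory isomerase-like protein named after its values were seen, read 6.22, 6.35 and 6.32 in vector and 6.89, 6.81 and 6.81 with full-length Notch1. Its arrays were apart, yet the difference of 0.54 ± 0.15 was not called (adjusted p = 0.814), and the gene was above Notch1 L1601P+∆P by 0.70 (adjusted p = 0.0259).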

How the data were processed

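Total RNA was biotin-labelled and hybridised to 1-colour Affymetrix arrays. The deposited values are log2 signals. The submitters' processing notes name RMA and limma, without versions, and no scanner files were used here, so background correction and normalisation are the authors'. Of 54675 probe sets, 41091 had 1 gene symbol, 1801 several and 11721 none, and 62 controls were left out. Symbols came from GEO's platform annotation, and 41037 probe sets matched RefSeq genes.

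limma 3.58.1 in R 4.3.3 was fitted to all 12 arrays with 1 mean per group and no covariate, and two-sided p-values were Benjamini-Hochberg adjusted over 19775 genes. The fit was tested on simulated data. Fold changes are 2 to the power of the log2 difference. The number of arrays limits the precision. Replicate numbers are shared by the groups, but same-numbered full-length and vector arrays did not deviate together (r = -0.041, -0.068 and -0.032), so the numbers were not taken as pairs.

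Named genes were NOTCH1, the called genes without overlap of arrays, members of the Notch and RAP lists, up to 4 called members a direction of each other list, and genes apart from all groups. Exceptions are marked in the text. The comparison, its members and the gene lists were chosen with earlier results of these data known. Of 630 list genes 579 were tested, and the rest were not analysed here. Alternatives were cyclic loess, array weights, a filter on dim genes, an intensity trend with robust moderation, the mean of all probe sets, the 6 arrays alone, a replicate block and each array left out.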

Additional observations from a re-analysis of the deposited data

How the results depend on the processing

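PLA2G2A, OLFM4 and RAP1A were called under all 13 alternatives to the comparison with vector. For OLFM4 the filter on dim genes is no support, since the gene passed it only through its full-length arrays. The count of 7 called genes became 19 with an intensity trend and robust moderation, 3 with the 6 arrays alone and 4 with the replicate block, which kept PLA2G2A, OLFM4, RAP1A and SERPINA3. Leaving out 1 array of either group gave 4 to 5. The gene apart from all 3 other groups (PDIA4) was lost with the replicate block, which gave 0, became 2 genes with dim genes filtered out and 5 with the intensity trend, and leaving out 1 array gave 0 to 1. It was lost without any full-length replicate and without vector replicates 1 or 2. With the replicate block the adjusted p was 0.0630 for PDIA4, 0.106 for CCN1 and 0.0630 for HSD17B2, and with the 6 arrays alone 0.115, 0.115 and 0.507. With the mean of all probe sets the differences of HEY1, HEY2 and JAG1 became 0.0316, -0.0086 and -0.0060. The alternative values of single genes, of calls by direction, of calls kept and of the endoplasmic reticulum median were counted together, those above included. Of these, 254 kept their side and direction, 22 no longer passed, 6 newly passed and 11 moved. The 22 are the losses already given for CCN1, HSD17B2 and PDIA4 (7 each) and SERPINA3 (1). The 11 are counts of called genes. The cause was not tested. A gene of typical error needed a difference of 0.53 to be called against vector.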

Other observations

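The gene with the smallest p after the called genes, named after its values were seen, was FABP5, a carrier of fatty acids in epidermis. It read 11.81, 11.83 and 11.84 in vector and 12.05, 12.10 and 12.11 with full-length Notch1. The groups were apart, but the difference of 0.26 ± 0.04 was not called (adjusted p = 0.183), beside 1.34 with Notch1 L1601P+∆P and 1.74 with NICD. With dim genes filtered out, FABP5 and HSP90B1 were called.

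MAP2, a microtubule-associated protein best known from neurons and also named afterwards, differed from vector by 0.30 (adjusted p = 0.459). It was above Notch1 L1601P+∆P by 0.30 (adjusted p = 0.0176) and above NICD by 0.57. At an unadjusted p under 0.05 in each direct test, 43 genes (0.217%) were higher with full-length Notch1 than in all 3 other groups and 114 (0.576%) were lower.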
